A study of Mus musculus with 4 samples.

Results

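The genes described here store, carry, make and clear retinoids in the liver: *Lrat*, *Aldh1a1*, *Aldh1a2*, *Aldh1a7*, *Rbp4*, *Cyp26a1*, *Dhrs3*, *Rdh10* and *Bco1*. They are 9 of the 20642 genes measured by PRO-seq (precision nuclear run-on sequencing), a run-on assay in nuclei that labels nascent RNA and so maps transcribing polymerases. They were listed by name with the KO and WT values of these libraries known, so every difference between KO and WT given for them is a description and carries no p-value. *Bco1* is listed under its older symbol *Bcmo1* and was matched through its RefSeq transcript, whereas the other 8 were matched by symbol.

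Nuclei came from whole livers of C57BL/6 mice on postnatal day 14, and each library was made from nuclei pooled over several mice. There were 2 libraries from *Alb-Cre*+ *Hdac3*+/+ mice (WT1, WT2) and 2 from *Alb-Cre*+ mice whose *Hdac3* alleles were fl/- or fl/fl (KO1, KO2). All mice thus carried the Cre transgene, which the albumin promoter drives in hepatocytes, so that stellate, endothelial and Kupffer cells are not its target. Mice with the fl/- genotype also carry 1 null *Hdac3* allele in those other cells. *Hdac3* encodes a histone deacetylase. The question put to these libraries was how its loss alters polymerase at promoters and along genes.

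Vitamin A reaches the liver as retinyl esters from the diet. Hepatocytes hydrolyse them and either release retinol bound to its plasma carrier or pass it to hepatic stellate cells, which esterify it again and keep it in lipid droplets. Retinol can also be oxidised through retinal to retinoic acid, the ligand of the retinoic acid receptors. Retinoic acid induces several genes that lower its own level, among them *Lrat*, *Dhrs3* and *Cyp26a1*.

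The values are normalized reads, that is, reads multiplied by 1 scaling factor per library. The promoter-proximal value is the number in the 50 bp window that holds the most reads near the transcription start site (TSS), and the gene body value is the number from 1 kb after the TSS to the end of the gene. The libraries held 16628518 to 26190040 reads on genes, of which promoter-proximal windows took 9.38% to 10.3% in WT and 13.6% to 17% in KO. Activity required promoter-proximal signal and, in the gene body, more than 4 normalized reads per kb on average over the libraries, which left 12705 genes. Across them the median log2 fold change (KO over WT) was 0.56 in promoter-proximal windows and -0.09 in gene bodies, and promoter-proximal changes are therefore also given relative to 0.56. Calls up or down required an adjusted p below 0.05 from limma together with an absolute log2 fold change above 0.6. *Hdac3* itself had 665, 648, 609 and 582 normalized reads in the gene body of WT1, WT2, KO1 and KO2. Those reads span the whole gene and not only the deleted stretch, so they do not check the genotypes.

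Levels differed widely among the 9 genes, as gene body density in normalized reads per kb shows. In WT the order was *Rbp4* (1316 ± 261, SD, n = 2), *Dhrs3* (232 ± 26.6), *Rdh10* (38.1 ± 2.20), *Lrat* (30.0 ± 1.24), *Cyp26a1* (20.7 ± 0.759), *Bco1* (13.5 ± 0.0401), *Aldh1a1* (2.03 ± 0.139), *Aldh1a7* (0.586 ± 0.0556) and *Aldh1a2* (0.353 ± 0.0704), and no neighbours in this order overlapped between the WT libraries. In KO, *Lrat* came after *Dhrs3* at 92.9 ± 3.89, above *Rdh10* at 29.4 ± 2.30 and *Cyp26a1* at 27.8 ± 4.68, whose KO libraries overlapped. *Rbp4* stayed the highest in KO (603 ± 55.8) and *Aldh1a2* the lowest (0.259 ± 0.0685). *Aldh1a2* and *Aldh1a7* were over the activity cutoff in 0 libraries and entered no test. *Aldh1a1* passed the filter only through the KO libraries, where its mean was 13.5 normalized reads per kb. The other 6 genes were over the cutoff in every library. By position, 4 of the 9 lie on chromosome 19, which holds 3.30% of the measured genes with a RefSeq chromosome.

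**Figure D1:**
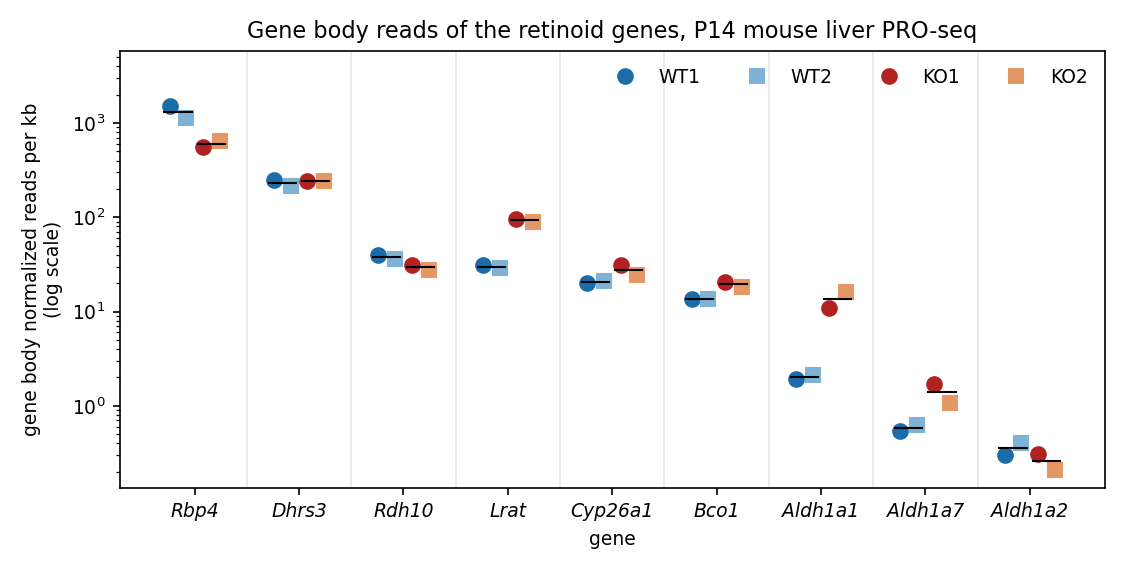
Gene body normalized reads per kb (log axis) of the 9 genes in WT1, WT2, KO1 and KO2, ordered by WT level, with a black bar at each group mean. *Lrat*, *Aldh1a1*, *Cyp26a1*, *Bco1* and *Aldh1a7* have both KO points above both WT points, and *Rbp4* and *Rdh10* have them below. The groups overlap for *Dhrs3* and *Aldh1a2*.

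Of the 7 active genes, *Lrat* and *Aldh1a1* were called up in the gene body and *Rbp4* was called down, and the remaining 4 had no call. Among all active genes, 10.4% were called up and 11.4% down in the gene body. In promoter-proximal windows, *Lrat*, *Aldh1a1*, *Dhrs3* and *Bco1* were called up and the other 3 had no call, beside 25.8% of all active genes called up and 2.2% called down. In the gene body, both KO libraries lay above both WT libraries for 4 of the 7 and below them for 2, beside 27.6% and 42.8% of all active genes. In promoter-proximal windows they lay above for 5 and below for 1, beside 61.9% and 6.72%. The 9 genes were chosen on this same contrast, so nothing is read from these counts. The median log2 fold change of the 7 was 0.41 in gene bodies and 0.86 in promoter-proximal windows.

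**Figure D2:**
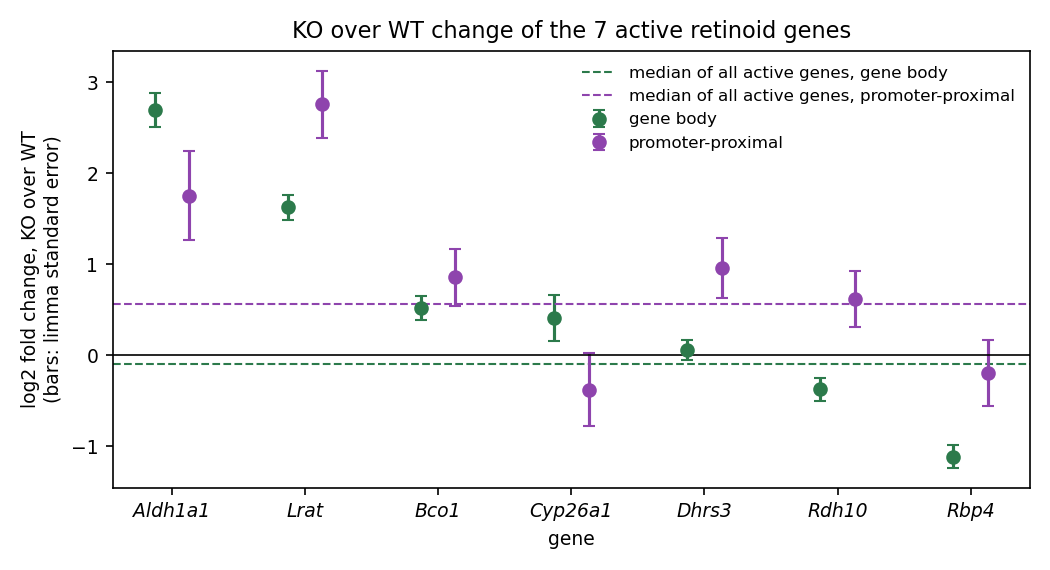
Log2 fold change (KO over WT) of the 7 active genes in the gene body and the promoter-proximal window, with limma standard errors as bars and dashed lines at the medians of all active genes, -0.09 and 0.56. *Lrat* lies far above both lines, *Rbp4* below both, and *Dhrs3* and *Rdh10* differ between the regions.

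*Rbp4* encodes the plasma carrier that takes retinol from hepatocytes to other tissues. It lies on the minus strand of chromosome 19 (GRCm38, 38116629 to 38125248, 6 exons). Its gene body held 11562 and 8714 normalized reads in WT1 and WT2 against 4343 and 4951 in KO1 and KO2, so both KO libraries were lower. The WT mean was 2.18 times the KO mean, and the log2 fold change was -1.11 (SE 0.13). At its promoter the groups overlapped, with 63.1 and 83 normalized reads in WT and 58.3 and 68.3 in KO. The log2 fold change there was -0.19 (SE 0.36), or -0.75 relative to the median of all active genes. *Rbp4* therefore carried fewer polymerases along the gene in KO, with no separation of the groups at the start.

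*Lrat* encodes lecithin retinol acyltransferase, which esterifies retinol for storage and in the liver is made chiefly by stellate cells. It lies on the minus strand of chromosome 3 (GRCm38, 82892579 to 82903973, 2 exons and 1 intron). Its RefSeq promoter (GRCm38.p6, chr3:82903925-82904224, minus strand) is printed because *Lrat* had the largest promoter-proximal change among the 9 genes. The window runs from 250 bases before the TSS to 50 bases from it. It held no match to the repeats or to the exact letters TATAAA, both described beside *Cyp26a1*, so no letters are in capitals. Variants of TATAAA were not searched.
Lrat: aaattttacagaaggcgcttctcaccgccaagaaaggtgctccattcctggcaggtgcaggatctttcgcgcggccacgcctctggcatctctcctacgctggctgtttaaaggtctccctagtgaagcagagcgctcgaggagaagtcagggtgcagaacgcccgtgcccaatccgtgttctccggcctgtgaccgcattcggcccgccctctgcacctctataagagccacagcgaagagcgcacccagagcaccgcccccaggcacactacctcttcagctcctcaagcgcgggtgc

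The promoter-proximal window of *Lrat* held 14.9 and 31 normalized reads in WT and 132 and 175 in KO. Its gene body held 321 and 303 in WT and 994 and 937 in KO. In both regions the KO libraries lay above the WT libraries without overlap. The KO mean was 6.67 times the WT mean at the promoter and 3.09 times in the gene body. The log2 fold changes were 2.76 (SE 0.37) and 1.63 (SE 0.13), and the former was 2.20 above the median of all active genes. The promoter-proximal values rest on 13 and 31 recovered reads in WT, and leaving out 1 library at a time gave log2 fold changes from 2.25 to 3.26.

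*Lrat* and *Rbp4* are products of different liver cells, and markers of those cells moved with them. Summed over 18 hepatic stellate cell markers, the gene bodies held 15399 and 17225 normalized reads in WT and 34621 and 32048 in KO, a ratio of 2.04. Of the 16 that were active, 14 were called up (median log2 fold change 1.24), and the other two had no call. In promoter-proximal windows 14 of the 16 were called up. The 8 hepatocyte markers summed to 302858 and 309191 in WT and 145454 and 140169 in KO, a ratio of 0.467, with 6 called down. The 8 liver endothelial markers had a ratio of 1.71 with 6 called up, and the 8 Kupffer cell and leukocyte markers a ratio of 1.21 with a median log2 fold change of 0.28. The 5 erythroid markers had a ratio of 0.354 with 4 called down, and of the 5 cholangiocyte markers (ratio 0.913) 3 were active and 1 was called down. No marker of these lists was at 0 in every library. More cells of a type and more transcription per cell cannot be told apart in bulk nuclei, and the part of cell type shares in the values of *Lrat* and *Rbp4* was not tested.

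**Figure D3:**
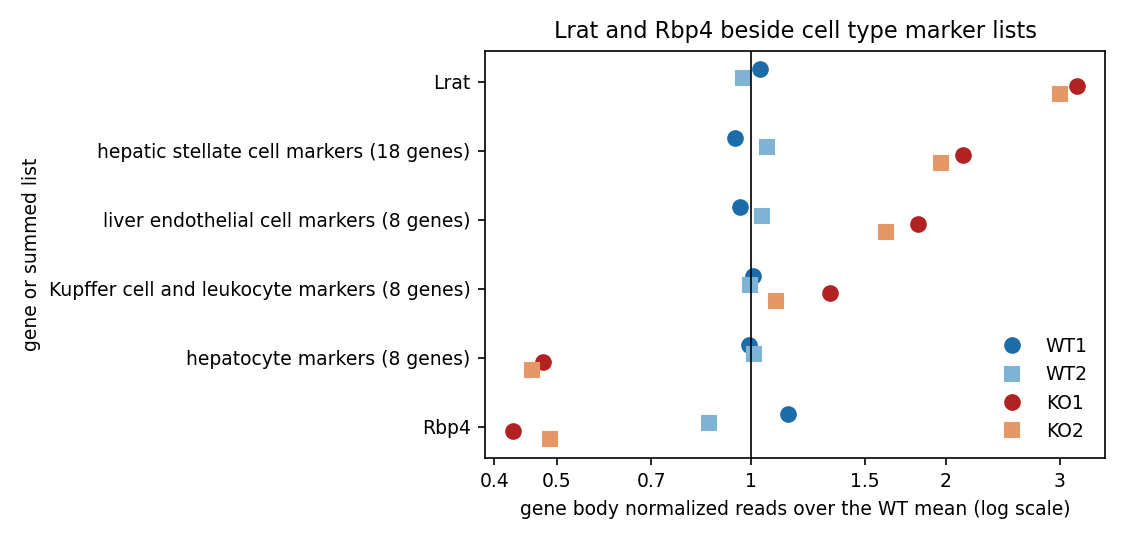
Gene body normalized reads of *Lrat*, *Rbp4* and 4 summed marker lists in each library, divided by the WT mean (log axis, vertical line at 1). KO libraries stand at 3.18 and 3.00 for *Lrat* and at 2.12 and 1.96 for stellate cell markers, and at 0.428 and 0.488 for *Rbp4* beside 0.475 and 0.458 for hepatocyte markers.

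*Bco1* encodes the oxygenase that cleaves beta-carotene into retinal. It lies on the plus strand of chromosome 8 (GRCm38, 117095854 to 117133720, 11 exons). Its promoter-proximal window held 226 and 172 normalized reads in WT and 328 and 392 in KO, and its gene body 499 and 497 in WT and 768 and 663 in KO. Both regions were higher in KO without overlap. The log2 fold changes were 0.86 (SE 0.31) at the promoter, which was 0.30 above the median of all active genes, and 0.52 (SE 0.13) in the gene body.

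*Rdh10* and *Dhrs3* act on the same step in opposite directions. *Rdh10* encodes a dehydrogenase that oxidises retinol to retinal, and *Dhrs3* a reductase that returns retinal to retinol. *Rdh10* lies on the plus strand of chromosome 1 (GRCm38, 16105774 to 16133734, 6 exons) and *Dhrs3* on the plus strand of chromosome 4 (144892827 to 144927645, 7 exons). At the promoter, *Rdh10* held 291 and 234 normalized reads in WT and 381 and 424 in KO. *Dhrs3* held 124 and 102 in WT and 194 and 249 in KO. Both genes were higher in KO there, with log2 fold changes of 0.62 (SE 0.31) and 0.96 (SE 0.33), or 0.06 and 0.40 relative to the median of all active genes.

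The gene bodies of this pair went another way. *Rdh10* held 1018 and 938 normalized reads in WT and 796 and 712 in KO, a log2 fold change of -0.38 (SE 0.13) with both KO libraries lower. *Dhrs3* held 8466 and 7196 in WT and 8144 and 8146 in KO, which overlap, and its log2 fold change was 0.06 (SE 0.11). The promoter-proximal calls of *Dhrs3* and *Bco1* did not hold when each region was scaled by its own medians of ratios (0.39 and 0.29), nor without WT1, WT2 or KO2, where *Dhrs3* stood at 1.10, 0.82 and 0.78 and *Bco1* at 1.05, 0.66 and 0.73. *Rdh10* had no promoter-proximal call, and with that scaling it stood at 0.05 at the promoter. With the deposited scaling, both *Rdh10* and *Dhrs3* were higher at the promoter in KO without being separated upward in the gene body. The medians of all active genes, 0.56 at promoters and -0.09 in gene bodies, show the same pattern, so it is not particular to this pair.

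**Figure D4:**
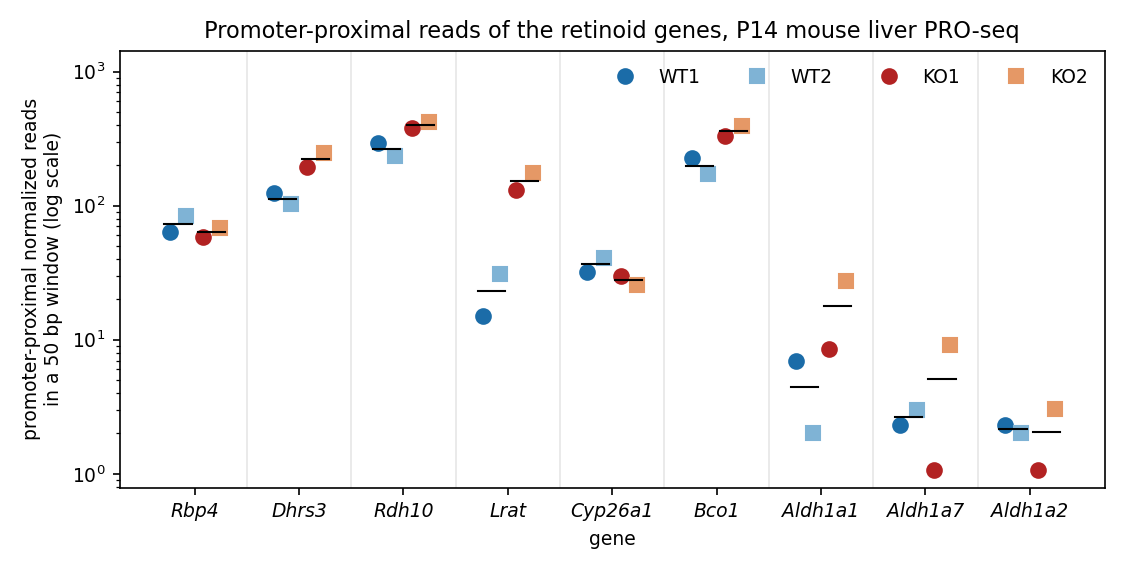
Promoter-proximal normalized reads (50 bp window, log axis) of the 9 genes in WT1, WT2, KO1 and KO2, in the gene order of the gene body plot, with a black bar at each group mean. *Dhrs3*, *Rdh10*, *Lrat*, *Bco1* and *Aldh1a1* are higher in both KO libraries, *Cyp26a1* is lower in both, and the groups overlap for *Rbp4*, *Aldh1a7* and *Aldh1a2*.

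*Aldh1a1*, *Aldh1a2* and *Aldh1a7* encode cytosolic aldehyde dehydrogenases. The first and the second of these oxidise retinal to retinoic acid, and *Aldh1a7* is a rodent paralogue of *Aldh1a1*. *Aldh1a1* lies on the plus strand of chromosome 19 (GRCm38, transcript at 20601961 to 20643462, 13 exons) and *Aldh1a7* on the minus strand nearby (20692953 to 20727562, 13 exons). *Aldh1a2* lies on chromosome 9 (71215789 to 71296243, plus strand, 14 exons). The transcripts of *Aldh1a1* and *Aldh1a7* were identical at 89.6% of 2050 aligned bases, against 69.0% of 1486 for *Aldh1a1* and *Aldh1a2*. Around their TSSs *Aldh1a1* and *Aldh1a7* were closer still, with 142 of 150 bases identical. The RefSeq sequences (GRCm38.p6) from 100 bases before the TSS to 50 bases from it are printed because reads from such a stretch are hard to assign to 1 of the genes, and capitals mark the 8 bases that differ. They are chr19:20601868-20602017 (plus strand) and chr19:20727507-20727656 (minus strand).
Aldh1a1: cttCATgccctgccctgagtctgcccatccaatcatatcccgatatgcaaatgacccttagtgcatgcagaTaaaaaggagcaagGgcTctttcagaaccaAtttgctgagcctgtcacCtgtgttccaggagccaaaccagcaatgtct
Aldh1a7: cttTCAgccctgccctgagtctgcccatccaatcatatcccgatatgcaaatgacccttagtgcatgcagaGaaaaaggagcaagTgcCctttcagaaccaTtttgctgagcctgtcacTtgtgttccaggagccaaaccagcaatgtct

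The gene body of *Aldh1a1* held 78.0 and 86 normalized reads in WT and 442 and 650 in KO. The KO mean was 6.66 times the WT mean, the log2 fold change was 2.70 (SE 0.19), and the groups were far apart. Its promoter-proximal window held few reads, 6 and 2 recovered reads in WT and 8 and 18 in KO, or 6.88, 2, 8.49 and 27.3 after normalization. The log2 fold change there was 1.75 (SE 0.49), and it was 0.96 without KO2 and 1.06 without WT2, each of which ended the call. The promoter-proximal call was also lost with DESeq2, with medians of ratios or edgeR and TMM within each region, and without the filter on activity. Most of what separated the groups for *Aldh1a1* was thus in the gene body, where the counts were larger.

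*Aldh1a7* held 18.4 and 21 normalized reads in its gene body in WT and 57.3 and 36.4 in KO, with 16 to 54 recovered reads per library. Both KO libraries were higher, the log2 fold change was 1.18, and the densities (0.586 and 1.39 normalized reads per kb) were far under the cutoff for activity. *Aldh1a2* held 24.1 and 32 normalized reads in WT and 24.4 and 16.7 in KO. Its groups overlapped, so of the 3 dehydrogenases *Aldh1a2* alone showed no separation in the gene body. Whether reads of *Aldh1a1* add to the value of *Aldh1a7* was not tested.

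*Cyp26a1* encodes the cytochrome P450 that oxidises and so clears retinoic acid, and its transcription is a widely used readout of retinoic acid receptor activity. It lies on the plus strand of chromosome 19 (GRCm38, 37697798 to 37701536, 7 exons). The RefSeq promoters of 8 genes (all but *Rdh10*) were searched on both strands for direct repeats of the hexamer AGGTCA or its variant AGTTCA, with GGGTCA or GGTTCA as further forms. The repeats are named by the gap between the hexamers (DR1, DR2 and DR5), and a DR5 is the classic site of the heterodimer of retinoic acid and retinoid X receptors. TATAAA was searched on the gene strand. Among 32544 distinct promoter windows of the same length, a DR5 was found in 0.0983%, a DR2 in 0.270%, a DR1 in 0.224% and TATAAA in 8.28%.

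The *Cyp26a1* promoter held a DR5 on the strand opposite to the gene, from 32 to 16 bases before the RefSeq TSS. The *Bco1* promoter held a DR1, also on the opposite strand, from 56 to 44 bases before it, an arrangement bound by heterodimers of PPAR and retinoid X receptors. TATAAA stood 28 bases before the RefSeq TSS of *Bco1*, 244 bases before that of *Aldh1a7* and 29 bases past that of *Cyp26a1*. No DR1, DR2 or DR5 was found in the windows of *Lrat*, *Dhrs3*, *Rbp4*, *Aldh1a1*, *Aldh1a2* and *Aldh1a7*, which says only that these letters are not there. The promoters with a repeat are printed to show its place, with the repeat and TATAAA in capitals: chr19:37697558-37697857 for *Cyp26a1* and chr8:117095615-117095914 for *Bco1* (GRCm38.p6, plus strand).
Cyp26a1: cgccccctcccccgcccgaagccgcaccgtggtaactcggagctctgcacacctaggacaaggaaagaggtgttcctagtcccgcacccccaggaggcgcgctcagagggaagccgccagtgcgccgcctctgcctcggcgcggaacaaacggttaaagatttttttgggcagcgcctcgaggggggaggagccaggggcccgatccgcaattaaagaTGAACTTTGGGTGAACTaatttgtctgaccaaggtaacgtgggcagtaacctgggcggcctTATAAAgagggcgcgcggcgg
Bco1: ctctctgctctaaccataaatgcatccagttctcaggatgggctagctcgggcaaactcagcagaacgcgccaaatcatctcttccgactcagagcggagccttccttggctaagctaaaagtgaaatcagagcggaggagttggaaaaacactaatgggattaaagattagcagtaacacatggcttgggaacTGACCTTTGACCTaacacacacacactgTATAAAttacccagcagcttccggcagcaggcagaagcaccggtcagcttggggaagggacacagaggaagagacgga

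*Cyp26a1* had no call in either region. Its promoter-proximal window held 32.1 and 41 normalized reads in WT and 29.7 and 25.8 in KO, and its gene body 55.1 and 58 in WT and 84.9 and 66.8 in KO. Both KO libraries were thus lower at the promoter and higher in the gene body. The log2 fold changes were -0.38 (SE 0.40), or -0.94 relative to the median of all active genes, and 0.41 (SE 0.25). The 3 known targets of retinoic acid among the 9 genes, *Lrat*, *Dhrs3* and *Cyp26a1*, therefore had gene body log2 fold changes of 1.63, 0.06 and 0.41.

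The log2 pausing index (promoter-proximal over gene body density) compares the regions within a library. Its KO minus WT difference was 1.13 for *Lrat*, 0.995 for *Rdh10*, 0.92 for *Rbp4*, 0.90 for *Dhrs3* and 0.34 for *Bco1*, and -0.94 for *Aldh1a1* and -0.79 for *Cyp26a1*. The index of *Rdh10* was 147 and 128 in WT and 246 and 306 in KO, and that of *Dhrs3* 9.98 and 9.68 in WT and 16.2 and 20.8 in KO. For *Cyp26a1* it was 32.2 and 38.9 in WT and 19.5 and 21.6 in KO. The index of *Lrat* was 10.3 and 21.9 in WT and 27.7 and 38.9 in KO, and that of *Rbp4* 0.854 and 1.48 in WT and 2.104 and 2.156 in KO. In these 5 genes the groups did not overlap, with *Cyp26a1* lower and the others higher in KO, and in *Aldh1a1* and *Bco1* they overlapped. The share of all active genes with such separation was not taken, so nothing is read from this count. Over all active genes the median log2 fold change was 0.56 in promoter-proximal windows and -0.09 in gene bodies. By these medians the regions moved apart across all active genes as well. The median over the 7 genes was 0.90. When promoter-proximal and gene body values were each scaled by their own medians of ratios it was 0.25. The difference was then 0.49 for *Lrat*, 0.34 for *Rdh10*, 0.28 for *Rbp4* and 0.25 for *Dhrs3*, and *Bco1* stood at -0.31 instead of 0.34, while *Cyp26a1* (-1.42) and *Aldh1a1* (-1.51) stayed below 0.

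Of 50 other genes of the retinoid pathway, listed by function, 39 were active. The list was made with earlier results of these data known. The shares and p-values given for its genes therefore describe these libraries and are no independent support. In gene bodies 5 rose and 10 fell, which is 12.8% and 25.6% of them beside 10.4% and 11.4% of all active genes, and their median log2 fold change was -0.11 against -0.09. In promoter-proximal windows 7 rose and 1 fell (17.9% and 2.56%, beside 25.8% and 2.2%), with a median of 0.12 against 0.56. When each region was scaled by its own median of ratios, 3 rose and 10 fell in promoter-proximal windows.

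Of 15 active genes for enzymes that turn over retinol and retinal, 5 fell in the gene body (33.3%, beside 11.4% of all active genes) and 10 had no call, with a median log2 fold change of -0.30 against -0.09. Many of these enzymes are made by hepatocytes, whose 8 markers had a ratio of 0.467 with 6 called down, and the part of cell type shares in these falls was not tested. The 5 were *Rdh16* and *Rdh7*, dehydrogenases of retinol, *Adh4* and *Adh5*, alcohol dehydrogenases, and *Dhrs4*, a reductase of retinal. *Rdh16* had a log2 fold change of -1.46 (SE 0.13, adjusted p = 4.54e-09, limma), with 1092 and 1212 normalized reads in WT and 428 and 410 in KO. *Rdh7* had -1.39 (SE 0.13, adjusted p = 1.11e-08), with 1420 and 1263 in WT and 467 and 556 in KO, and it was also called down in the promoter-proximal window (-0.89, adjusted p = 0.0272). That call was lost without any 1 of the 4 libraries, with log2 fold changes from -0.31 without WT1 (adjusted p = 0.682) to -1.48 without WT2 (adjusted p = 0.053). These genes have close paralogues (*Rdh1*, *Rdh9*, *Rdh16f2* and other alcohol dehydrogenases), so the reads of each are uncertain. For *Adh4* the log2 fold change was -0.90 (SE 0.21, adjusted p = 0.0013), and the call was lost without WT1 (-0.58) and without KO2 (adjusted p = 0.0711). *Adh5* was at -0.83 (SE 0.12, adjusted p = 6.41e-06) and *Dhrs4*, which was added after its values were seen, at -0.81 (SE 0.13, adjusted p = 1.57e-05). In promoter-proximal windows 1 gene of the list rose, *Rdh11* (1.69, adjusted p = 0.000319, named after its values were seen), a call lost without WT1 (adjusted p = 0.0753) and without KO2 (adjusted p = 0.0552).

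The steps from retinal to retinoic acid and beyond went in both directions. *Aldh8a1*, a dehydrogenase that prefers the 9-cis form of retinal, fell in the gene body from 4755 and 3806 normalized reads in WT to 1810 and 1919 in KO (log2 fold change -1.19, SE 0.12, adjusted p = 2.49e-08, limma). *Aox1*, an aldehyde oxidase, rose from 925 and 752 to 1469 and 1658 (0.90, SE 0.13, adjusted p = 3.95e-06). *Cyp26b1*, a clearance enzyme related to *Cyp26a1*, was singled out after its values were seen. It rose from 1216 and 1120 to 1955 and 1852 (0.70, SE 0.11, adjusted p = 2.49e-05), while its promoter-proximal window held at most 2 normalized reads per library. *Stra6l*, a membrane receptor for retinol-bound RBP4 in liver, fell in the gene body from 3881 and 4323 to 1884 and 2006 (-1.07, SE 0.11, adjusted p = 4.17e-08). *Cd36*, a scavenger receptor that takes up lipids and carotenoids, rose (0.88, SE 0.12, adjusted p = 3.15e-06). *Scarb1*, a lipoprotein receptor of the same list that was added after its values were seen, fell from 12420 and 9769 to 7220 and 6746 (-0.66, SE 0.12, adjusted p = 9.92e-05), a call lost without WT1 (-0.49). Of 4 active genes for ester storage and hydrolysis 2 fell in the gene body and were added after their values were seen. They were the lipases *Lpl* (-0.82, SE 0.12, adjusted p = 6.66e-06) and *Pnpla2* (-0.64, SE 0.13, adjusted p = 0.000466), and the call of *Pnpla2* was lost without WT1 (-0.48) or KO2 (-0.59).

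Among 5 active genes for the receptors of retinoic acid and its partners, 3 rose in promoter-proximal windows and 1 rose in the gene body, which is 60% and 20% of them beside 25.8% and 10.4% of all active genes. *Rarg* rose in the gene body from 1327 and 1495 normalized reads in WT to 3721 and 3866 in KO (log2 fold change 1.43, SE 0.11, adjusted p = 6.74e-10, limma). Its promoter-proximal call (1.18, adjusted p = 0.0355) was lost without any 1 of the 4 libraries, with adjusted p from 0.076 without WT2 to 0.377 without WT1. *Rara* and *Rarb*, the other two that rose at the promoter, were named after their values were seen. *Rarb* went from 201 and 184 to 516 and 547 (1.46, SE 0.31, adjusted p = 7.57e-05), which held without each library. *Rara* went from 153 and 110 to 248 and 372 (1.22, SE 0.32, adjusted p = 0.00204), and was no longer called without WT2 (adjusted p = 0.215) or KO2 (adjusted p = 0.111). With each region scaled by its own median of ratios, *Rarb* was still called at the promoter, whereas *Rara* and *Rarg* were not.

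**Figure D5:**
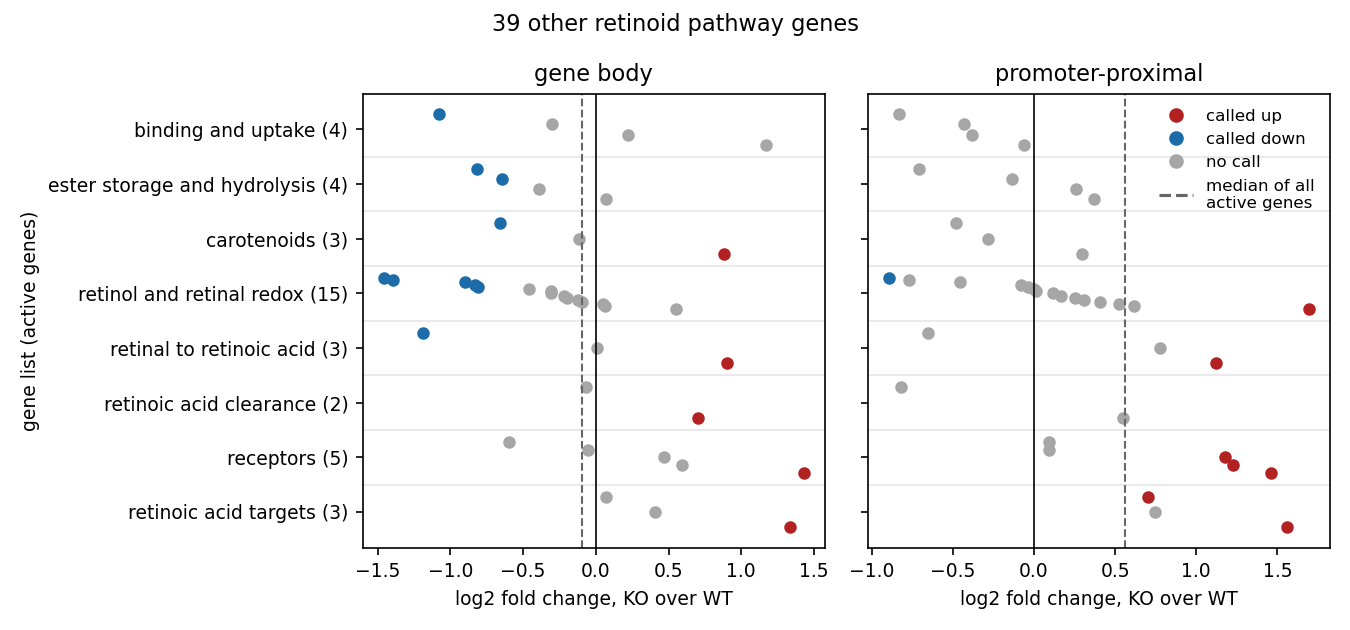
Log2 fold change (KO over WT) of the 39 active pathway genes outside the 9, by functional list, in gene bodies (left) and promoter-proximal windows (right), with calls in colour and a dashed line at the median of all active genes. In gene bodies 5 points are called up and 10 down, and in promoter-proximal windows 7 are called up and 1 down.

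Genes within 50 kb of the 9 were also measured. Beside *Rbp4*, *Ffar4* (listed as *O3far1*), a receptor for long-chain fatty acids that ends 2357 bp from it on the plus strand, fell in the gene body from 172 and 199 normalized reads in WT to 35.0 and 51.6 in KO (log2 fold change -2.10, SE 0.24, adjusted p = 1.99e-07, limma), and *Pde6c*, 7460 bp away, fell from 2233 and 1593 to 717 and 647 (-1.47, SE 0.14, adjusted p = 1.26e-08). The promoter-proximal window of *Pde6c* held 0 normalized reads in WT1, WT2 and KO2 and 1.06 in KO1, and where its gene body reads begin was not tested. *Cep55*, 42195 bp away, had no call (-0.15). Near *Lrat*, *Rbm46* and the overlapping *Rbm46os* on the opposite strand were under the activity cutoff, with gene body log2 fold changes of 1.61 and 1.78. *Cyp26c1* and *Exoc6* beside *Cyp26a1* had no call and stood at -0.07 and 0.10, and *Rpl7* beside *Rdh10* at 0.04. The promoter-proximal window was searched on the coding strand. For gene bodies the strand is not given in the sources used here. *Rbm46os*, whose gene spans *Lrat* on the plus strand (82876705 to 82943638), held fewer gene body reads than *Lrat* in every library. It had 33.3, 43, 130 and 134 normalized reads in WT1, WT2, KO1 and KO2, against 321, 303, 994 and 937 for *Lrat*. Whether reads of both genes mix where they overlap was not tested.

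Of 2282 intergenic enhancers that the deposited list holds, 0 had 1 of the 9 genes as its closest gene or lay within 50 kb of one. Of all active genes, 1379 (10.9%) were the closest gene of an enhancer. With only 9 genes, nothing is read from this difference. The list's other linking method is 4DGenome, a database of chromatin contacts that by the paper includes many from tissues other than liver. By that method, 6 of the 9 genes had 8 links to listed enhancers. Of these links, 5 were to an enhancer on the same chromosome (*Lrat*, *Aldh1a2*, *Aldh1a7* and *Cyp26a1*). The share of all active genes with such links was not taken, so nothing is read from these counts. The nearest enhancer centre was 99.1 kb from *Lrat*, 202 kb from *Cyp26a1*, 247 kb from *Rbp4*, 400 kb from *Aldh1a7* and 484 kb from *Aldh1a1*. It was 543 kb from *Bco1*, 705 kb from *Aldh1a2*, 2639 kb from *Rdh10* and 3158 kb from *Dhrs3*. The list holds no values of single libraries, so enhancer transcription near these genes was not compared.

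The genes whose 8 values (4 libraries, both regions, log2 scale, centred per region) lay closest to those of *Lrat* were *Grhl3* (Euclidean distance 0.419), *Nr1h5* (0.432) and *Aplnr* (0.513), where the median distance over active genes was 2.95. For *Aldh1a1* they were *Thrsp* (1.12), *Ces1g* (1.20) and *Gm4265* (1.24), at a median of 3.37. Those of *Rbp4* were *Gyk*, *Mst1* and *Hdac11* (0.320 to 0.366), and those of *Cyp26a1* were *Gpr56*, *Ldlrad1* and *Mapk8ip1* (0.286 to 0.344). *Dhrs3* was closest to *Crbn*, *Bnip3l* and *Pigm*, *Rdh10* to *Med18*, *Wdr53* and *Cln8*, and *Bco1* to *Ptprm*, *Ifnar2* and *Fnbp1*, at distances from 0.117 to 0.166.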

How the data were processed

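PRO-seq was measured in 4 libraries. The authors trimmed reads with cutadapt, aligned them to mm10 with Bowtie2, dropped ribosomal and poorly mapped reads and counted the rest per RefSeq transcript with NRSA. The deposited values are read counts for WT2, whose scaling factor is 1, and normalized signal for WT1, KO1 and KO2, counts that the authors multiplied by 1 factor per library. Dividing by the factors recovered whole reads for 100% of 41640 values per library (tolerance 0.001). These deposited counts give a depth of 16628518 to 26190040 reads on genes. The deposited enhancer positions carry no library values.

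Where a gene had several transcripts, the one whose promoter-proximal mean was largest stood for it. Log2(normalized reads + 1) was compared with limma 3.58.1 (trend, without a block; R 4.3.3), and p-values were adjusted by Benjamini-Hochberg over the 12705 active genes. The fold change understates that of genes with few reads. With 2 pooled libraries a group, p-values measure only the spread between these libraries. Alternatives used edgeR 4.0.16, DESeq2 1.42.0, other scalings, filters and pseudocounts (0.1 and 10), the replicate number as a block, and fits without each library. The fit was tested on simulated data. The 9 genes, the gene lists and the tests were chosen with earlier results of these data known. Named pathway genes are up to 10 called genes with the largest absolute gene body change, and others are said to be added. Some genes of the lists enter the counts and are not reported here by name. Neighbours, nearest enhancers and the 3 most alike genes were named by rule. Promoter sequences are from RefSeq (GRCm38.p6, the assembly of mm10), and transcript positions from GENCODE. Of the 9 genes, 8 matched a promoter entry, and *Rdh10* is named only. The repeats searched contain the hexamers searched. Python 3.11.15 and matplotlib 3.10.9 were used.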

Additional observations from a re-analysis of the deposited data

How the results depend on the processing

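The 9 genes were chosen on this contrast, so their calls under alternatives describe the settings and support nothing. In gene bodies, 0 of the 9 were called down without a filter on activity, where *Rbp4* lost its call. Requiring activity in every library removed *Aldh1a1* and left 1 called up. Of 226 fold changes of members under alternatives, 2 changed sign, both without WT2 and without a call: *Dhrs3* in the gene body (-0.06) and *Rbp4* at the promoter (0.000823). Settings that altered only the filter, the choice of transcript or the block repeated the main fold change of each member. Those values count among the 226 but could not change sign. At promoters, from 4 called up, the number fell to 1 with medians of ratios within each region, 1 with edgeR and TMM, 0 without a filter and 2 with a replicate block, and it was 2 without WT1, 1 without WT2 and 1 without KO2, a range of 1 to 4 over the libraries left out. With scaling within regions *Dhrs3* stood at 0.39 and *Bco1* at 0.29. The median log2 pausing index moved from 0.90 to 0.25 under that scaling.

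Of other pathway genes, 5 were called up in gene bodies, which became 2 without a filter and 3 with activity in every library, and 10 were called down, which became 5 without a filter. At promoters, 7 called up became 3 with medians of ratios within regions, 3 with edgeR and TMM, 0 without a filter and 1 to 5 with a library left out (3 without WT1, 2 without WT2, 1 without KO2). The 1 called down became 10 with medians of ratios within regions, 10 with TMM, 0 with gene body medians of ratios, 2 with DESeq2, 2 with pseudocount 10, 0 without a filter and 0 to 1 with a library left out. The cause was not tested. With a library left out, 11 of the 15 gene body calls and 1 of the 8 promoter-proximal calls held in each case, where a lone library was assumed to vary like the other group.

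Replicate numbers gave no pairing: deviations of same-numbered libraries correlated at -0.11 (promoter-proximal) and 0.02 (gene body). With the replicate block, 6 other pathway genes were called up and 10 down in gene bodies, and 5 up and 0 down at promoters. A crossed pairing (WT1 with KO2), chosen after seeing the data, called 8 up and 4 down at promoters. Depth limits windows with few reads, such as the promoter of *Aldh1a1* with 2 to 18 recovered reads per library.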
